A study of Mus musculus with 4 samples.

Results

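Trp53 and 9 genes that its product p53 activates were followed in lung tumours of CD109-/- and CD109+/+ KP mice. The 10 genes were chosen by name (Trp53, Cdkn1a, Mdm2, Ccng1, Phlda3, Zmat3, Fas, Bax, Trp53inp1 and Eda2r) out of 23787 genes that could be named on the array, and 17 probes carried their accessions. Earlier results of these data were known when the genes were chosen, so their counts beside those of all probes are a description only. KP mice are a lung tumour model with floxed Trp53, in which adenoviral Cre given into the trachea starts adenocarcinomas whose cells lose p53. RNA was taken from C57BL/6J mice 88 to 92 days after Cre. There were 2 samples from CD109-/- mice (replicate 1 male, replicate 2 female) and 2 from CD109+/+ mice (both female), each on 1 single-colour Agilent array. All of them carried the KP alleles and had received Cre, so no sample with intact p53 in the tumour cells was compared. How the CD109-/- allele was made, and the dose of Cre, are not given in the sources used here.

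p53 is a transcription factor that is kept scarce by the ubiquitin ligase Mdm2 and is stabilised by DNA damage and oncogenic stress. It binds paired copies of a palindromic half-site and switches on genes of several kinds. Some stop the cell cycle (Cdkn1a), oppose survival signals (Phlda3) or promote death (Fas, Bax, Trp53inp1, Eda2r). Others act on RNA (Zmat3) or in the control of p53 itself (Mdm2, Ccng1). Many of these genes also have inputs other than p53, Cdkn1a and Fas among them. Tumour RNA of this model comes from Cre-recombined epithelial cells together with stromal, immune and airway cells that Cre did not reach and that keep Trp53. In such bulk samples fewer cells of a type and less RNA per cell cannot be told apart.

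The 75th percentile of the signal lay between 557 and 688 on the 4 arrays, and 64.3% to 67.0% of the spots were well above background. The Cd109 probe, the check of the labels, had log2 signals of -7.98 and -7.87 on the CD109-/- arrays, where it was not well above background, and -3.70 and -4.66 on the CD109+/+ arrays, so that it was at least 2.92-fold lower in CD109-/- tumours (limma adjusted p = 0.299). All 10 markers of lung adenocarcinoma and type 2 epithelium, such as Sftpc and Nkx2-1, were well above background on every array. Array CD109-/- replicate 2 correlated with CD109+/+ replicate 2 at r = 0.982, as closely as the CD109+/+ arrays with each other, and with CD109-/- replicate 1 at r = 0.968. The labels do not say that samples came from separate tumours or litters, so p-values measure only the spread between these samples. All log2 signals below are relative to the array's 75th percentile, a difference is the CD109-/- mean minus the CD109+/+ mean with limma's standard error (SE, n = 2 per genotype), and replicate 1 is given before replicate 2. The number of arrays limits the precision, and an exact two-sided permutation test of 2 against 2 samples cannot give a p below 0.333.

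Most of the p53 targets had higher mean signals in CD109-/- tumours. On the brightest probe of each gene Ccng1, Fas and Phlda3 led, while the differences of Bax and Mdm2 lay near 0. The dimmer of 2 Cdkn1a probes differed most (1.30 on the log2 scale), but the brighter one differed by 0.62 and overlapped between the genotypes. Of the 17 probes 14 were well above background on all 4 arrays and were tested, and the remaining 3 all belonged to Eda2r. Positive differences were found for 11 of the 14 tested probes, against 44.5% of all 35769 probes, and the median difference was 0.45 on the log2 scale, against -0.05 over all probes. None of the 14 passed limma's threshold of 0.05 after Benjamini-Hochberg adjustment over all probes, the lowest adjusted p among them being 0.608. No probe of the array passed (0.00%, lowest adjusted p = 0.288), although 2437 (6.81%) had an unadjusted p under 0.05 with limma. At that unadjusted level 3 of the 14 probes were higher (of Cdkn1a, Ccng1 and Phlda3) and 0 lower, against 3.87% and 2.94% of all probes. The genotypes did not overlap in 8 of the 14 probes, all of them higher in CD109-/- tumours, against 16.5% of all probes that were higher and 21.2% that were lower without overlap. All probes include those without a gene symbol. By gene, on the brightest tested probe, 8 of the 9 measured were higher, against 50.3% of all genes. Without overlap there were 7 higher and 0 lower, against 20.3% and 18.3% of all genes. At an unadjusted p under 0.05 with limma 2 were higher and 0 lower, against 5.05% and 2.48%.

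The height of these values rested more on 1 of the CD109-/- samples than on the other. The brightest probe of every one of the 9 measured genes had its highest signal on CD109-/- replicate 2, whereas 27.4% of the 16443 genes tested had theirs on that array. By probe these were 12 of the 14 tested, against 25.1% of all probes. With CD109-/- replicate 2 left out, the 14 probes had a median difference of 0.20 and 12 were positive. With CD109-/- replicate 1 left out, so that only females remained, the median was 0.68 and 13 were positive. Dropping CD109+/+ replicate 1 or 2 gave medians of 0.56 and 0.34.

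**Figure D1:**
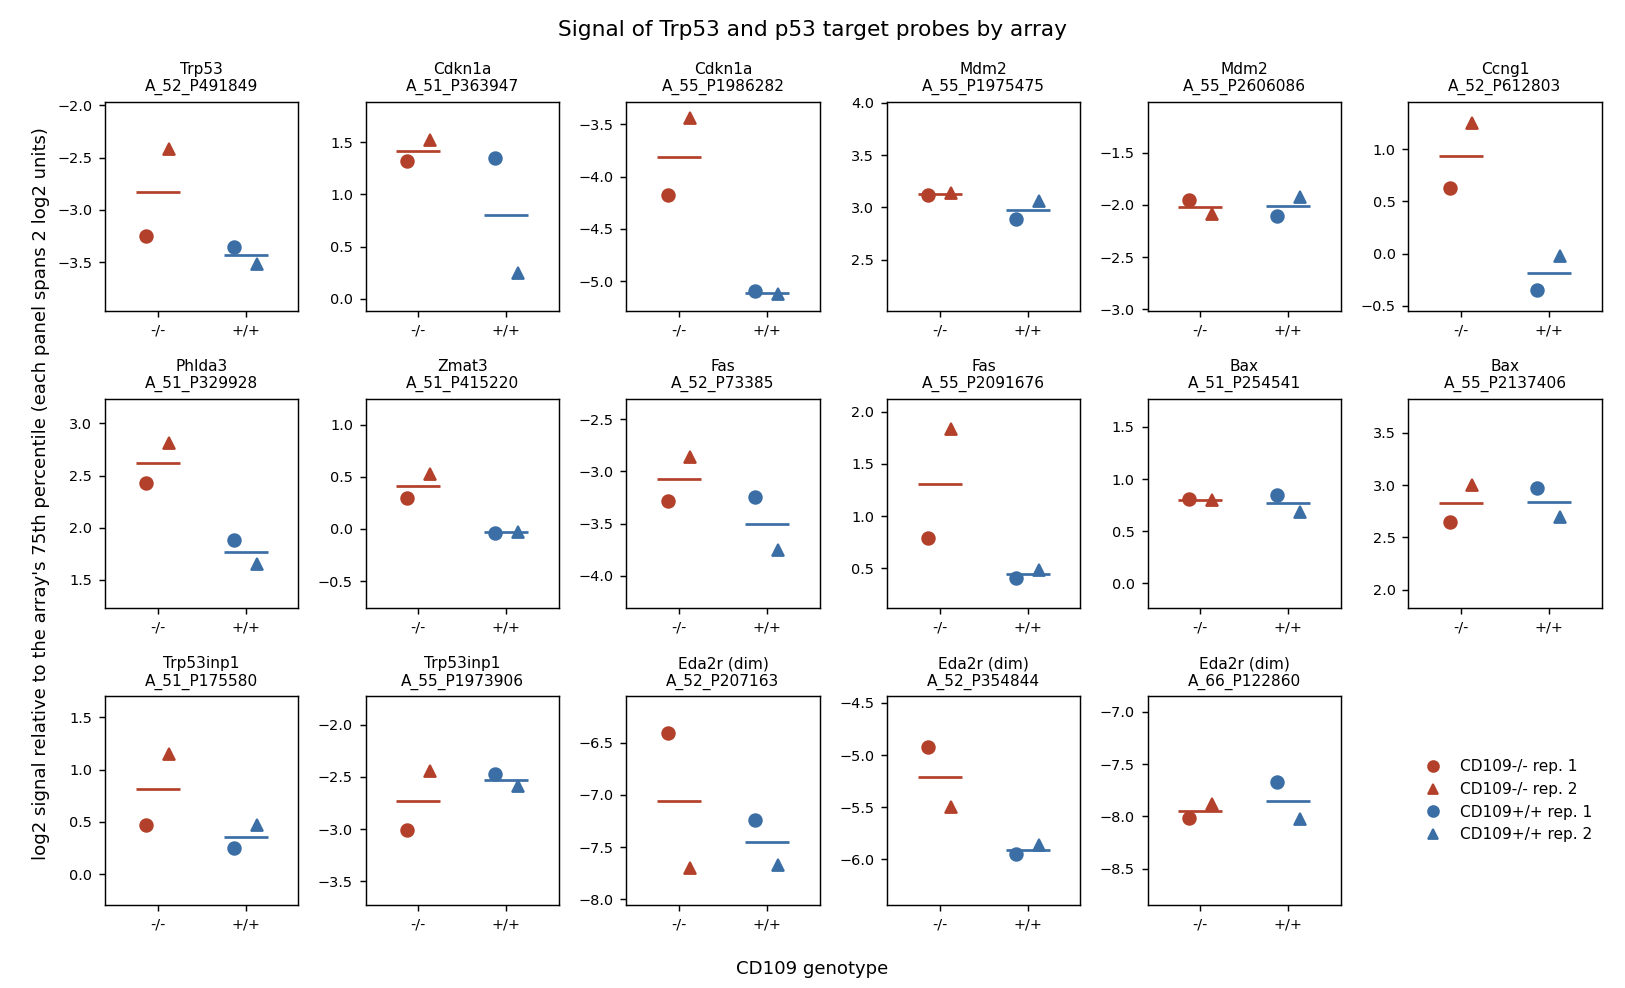
Log2 signal relative to each array's 75th percentile for the 17 probes of Trp53 and its targets, 1 panel per probe, each panel spanning 2 log2 units, with CD109-/- samples at the left and CD109+/+ samples at the right of each panel (points are samples, circles replicate 1 and triangles replicate 2, and lines are means of 2). Ccng1, Phlda3, Zmat3 and the dimmer Cdkn1a probe show both CD109-/- points above both CD109+/+ points, the Bax points intermingle, and the Eda2r probes, marked dim, were not tested.

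Trp53 itself was represented by 1 probe, of low signal but well above background on all 4 arrays. Its log2 signals were -3.25 and -2.42 in CD109-/- tumours, against -3.36 and -3.51 in CD109+/+ tumours. CD109-/- replicate 2 stood apart, while CD109-/- replicate 1 lay only 0.11 above the nearer CD109+/+ sample. The difference was 0.60 ± 0.35 (limma adjusted p = 0.79), 0.19 without CD109-/- replicate 2 and 1.02 without CD109-/- replicate 1, and 0.27 with normexp background correction. The files give no position for the probe within the transcript, so whether it lies in the floxed part was not examined and its signal is no check of the deletion.

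By its values over the 4 arrays, each gene centred on its own mean but not scaled, Trp53 was closest to Bmf, Trp53inp1 and Fas among 138 other genes of the p53 pathway lists. The root mean square distances were 0.15, 0.16 and 0.17 on the log2 scale. Both the order and the size of the values set these distances, which describe 4 arrays and carry no test. The genotypes overlapped in Bmf, which differed by 0.31, and its further probe gave -0.20.

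Mdm2, the ubiquitin ligase that degrades p53 and is itself induced by it, was measured by a bright and a dim probe. The bright Mdm2 probe had log2 signals of 3.12 and 3.13 in CD109-/- tumours, against 2.89 and 3.07 in CD109+/+ tumours. Both CD109-/- samples were higher, but the gap between the genotypes was 0.05 and the difference 0.15 ± 0.23 (limma adjusted p = 0.923), with a 95% interval of -0.44 to 0.74. Dropping CD109+/+ replicate 1 left a difference of 0.06, and dropping CD109+/+ replicate 2 one of 0.24. The dim probe had log2 signals of -1.96 and -2.09 against -2.10 and -1.92, a difference of -0.01 ± 0.24 in which the genotypes overlapped. Its sign turned under several alternatives, for example to 0.03 when arrays were scaled to their medians. The interval of the bright probe leaves room for a change of the size seen in several other targets, so the data do not show that Mdm2 was equal.

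Cdkn1a and Ccng1 were read next. Cdkn1a encodes p21, an inhibitor of cyclin-dependent kinases and the best known mediator of p53-induced arrest. The brighter Cdkn1a probe had log2 signals of 1.32 and 1.52 in CD109-/- tumours, against 1.35 and 0.25 in CD109+/+ tumours. CD109+/+ replicate 2 was low and the other samples were alike, so that the genotypes overlapped. Its difference was 0.62 ± 0.42 (limma adjusted p = 0.814), 0.07 without CD109+/+ replicate 2 and 1.17 without CD109+/+ replicate 1.

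A dimmer Cdkn1a probe, which carries the accession of another transcript of the gene, had log2 signals of -4.18 and -3.44 in CD109-/- tumours, against -5.10 and -5.13 in CD109+/+ tumours. Here the CD109+/+ samples were alike and both CD109-/- samples lay above them, by at least 0.92. The difference of 1.30 ± 0.32, a 2.47-fold change of the mean, was the largest of the 14 probes (limma adjusted p = 0.608), and it ranged from 0.93 to 1.67 when single samples were left out. With normexp, whose added offset compresses dim probes, it was 0.29. The CD109+/+ samples were thus far apart with the brighter Cdkn1a probe and alike with the dimmer one, and no transcript can be assigned to the gene's signal from these values.

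Ccng1 encodes cyclin G1, which recruits protein phosphatase subunits to Mdm2. Its single probe had log2 signals of 0.63 and 1.25 in CD109-/- tumours, against -0.34 and -0.02 in CD109+/+ tumours. Both CD109-/- samples exceeded both CD109+/+ samples, by at least 0.65. The difference was 1.12 ± 0.32, or 2.18-fold (limma adjusted p = 0.624), with a 95% interval of 0.31 to 1.93, and it stayed between 0.81 and 1.44 when any 1 sample was left out.

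Promoter windows of the members were read to show where the recognition sequence of p53 lies close to a gene's start. RefSeq windows of GRCm38.p6, from 250 bases before to 50 bases after a start, were matched by symbol for 8 of the genes (9 windows, 2 of them of Cdkn1a), and Zmat3 and Trp53inp1 have no window here. The canonical p53 half-site was searched by its consensus, which is its own reverse complement, so that 1 search covers both strands. A paired site was taken as 2 half-sites at most 13 bases apart that keep the fixed C and G of each. An exact half-site was found in 5 of the 9 windows, of Trp53, Cdkn1a, Mdm2, Ccng1 and Bax, and in 8.36% of all 32851 windows. A paired site with at most 1 mismatch was found for Cdkn1a and Ccng1, and in 0.627% of all windows. With at most 2 mismatches Bax was added, at 4.09% of all windows. The windows of these 3 genes are shown because they hold the paired sites with the fewest mismatches. Capitals mark exact half-sites and the half-sites of the best pair (the first of equals) or of any pair with at most 1 mismatch, and the half-sites of a pair can touch or overlap those of another.
Cdkn1a, chr17:29090729-29091028, plus strand: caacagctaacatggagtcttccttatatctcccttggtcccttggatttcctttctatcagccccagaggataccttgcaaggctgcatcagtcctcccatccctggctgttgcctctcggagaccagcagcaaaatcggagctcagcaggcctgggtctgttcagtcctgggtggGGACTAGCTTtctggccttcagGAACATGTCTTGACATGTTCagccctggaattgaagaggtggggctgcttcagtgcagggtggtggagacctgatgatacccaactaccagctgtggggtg
Ccng1, chr11:40755237-40755536, minus strand: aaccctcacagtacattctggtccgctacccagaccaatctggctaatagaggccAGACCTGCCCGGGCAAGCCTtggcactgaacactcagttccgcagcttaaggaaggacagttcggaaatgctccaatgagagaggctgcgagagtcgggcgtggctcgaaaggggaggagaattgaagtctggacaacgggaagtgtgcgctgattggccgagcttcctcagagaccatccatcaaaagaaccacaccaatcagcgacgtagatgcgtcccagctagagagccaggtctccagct
Bax, chr7:45466849-45467148, minus strand: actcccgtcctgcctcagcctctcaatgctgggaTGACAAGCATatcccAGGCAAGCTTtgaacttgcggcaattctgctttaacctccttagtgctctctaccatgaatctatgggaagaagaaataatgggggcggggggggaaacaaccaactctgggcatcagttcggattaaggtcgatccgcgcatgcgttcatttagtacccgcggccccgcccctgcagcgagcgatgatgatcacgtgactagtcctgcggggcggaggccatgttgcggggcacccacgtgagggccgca
In Cdkn1a the marked stretch starts 73 bases before the window's start site and ends 32 bases before it, its outer pair has no mismatch and a spacer of 12 bases, and its last 2 half-sites touch and hold 1 mismatch. In Ccng1 the 2 half-sites touch as well, starting 195 bases before the start site, with 1 mismatch. Bax has 2 pairs with 2 mismatches each, sharing a half-site, of which the one with a spacer of 5 bases is marked and the other has a spacer of 1 base. The second Cdkn1a window and the windows of Phlda3, Fas and Eda2r held no exact half-site. A match describes letters only, and known p53 sites of several of these genes lie further away, for instance in the first intron of mouse Mdm2 and of human FAS.

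Phlda3 encodes a pleckstrin homology domain protein that competes with Akt for membrane lipids and so dampens survival signalling. Its log2 signals were 2.43 and 2.81 in CD109-/- tumours, against 1.88 and 1.66 in CD109+/+ tumours. The genotypes were separated by 0.55, and each sample within a genotype lay closer to its partner than to the other genotype. The difference of Phlda3 was 0.85 ± 0.26, or 1.81-fold (limma adjusted p = 0.644, 95% interval 0.18 to 1.53), and it ranged from 0.66 to 1.04 without single samples.

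Zmat3, a zinc finger gene whose product binds RNA, showed a smaller but similarly ordered pattern. Its log2 signals were 0.30 and 0.53 in CD109-/- tumours, against -0.04 and -0.03 in CD109+/+ tumours. The CD109+/+ samples were nearly equal and both CD109-/- samples lay above them. The difference was 0.44 ± 0.24 (limma adjusted p = 0.78), and 0.33 to 0.56 without single samples.

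Among the genes of cell death, Fas had the widest spread within CD109-/- tumours. Fas encodes the death receptor that Fas ligand on lymphocytes engages. The brighter Fas probe had log2 signals of 0.79 and 1.83 in CD109-/- tumours, against 0.41 and 0.48 in CD109+/+ tumours. Replicate 2 of CD109-/- was far above the rest, and replicate 1 lay 0.31 above the nearer CD109+/+ sample. The difference was 0.87 ± 0.40 (limma adjusted p = 0.757), 0.35 without CD109-/- replicate 2 and 1.39 without CD109-/- replicate 1. A dimmer Fas probe, with the accession of another transcript, had log2 signals of -3.28 and -2.86 against -3.25 and -3.75 in CD109+/+ tumours. Its genotypes overlapped, and the difference of 0.43 ± 0.31 was 0.22 when CD109-/- replicate 2 was left out, 0.17 without CD109+/+ replicate 2 and 0.68 without CD109+/+ replicate 1.

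Bax encodes the protein that forms pores in the outer mitochondrial membrane during apoptosis. One Bax probe had log2 signals of 2.65 and 3.001 in CD109-/- tumours, against 2.97 and 2.70 in CD109+/+ tumours, and the other had 0.81 and 0.80 against 0.85 and 0.68. Both probes overlapped between the genotypes. Their differences were -0.01 ± 0.27 and 0.04 ± 0.23 (limma adjusted p of 0.997 and 0.987), with 95% intervals of -0.69 to 0.67 and -0.55 to 0.63, and the sign of each depended on which sample was left out. Bax thus gave no difference that these arrays could show, although the intervals would admit 1 as large as that of Zmat3.

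Trp53inp1 encodes a stress protein that acts in autophagy and in the phosphorylation of p53. The brighter Trp53inp1 probe had log2 signals of 0.47 and 1.15 in CD109-/- tumours, against 0.25 and 0.47 in CD109+/+ tumours. CD109-/- replicate 1 was level with CD109+/+ replicate 2, the gap being 0.01, and only CD109-/- replicate 2 stood out. The difference was 0.45 ± 0.32 (limma adjusted p = 0.818), 0.12 without CD109-/- replicate 2 and 0.79 without CD109-/- replicate 1. Its dimmer probe had the opposite sign in the mean, with log2 signals of -3.01 and -2.44 against -2.47 and -2.59 and a difference of -0.20 ± 0.29, and it was 0.09 without CD109-/- replicate 1.

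Eda2r encodes a receptor of the tumour necrosis factor family that binds a form of ectodysplasin A. Its 3 probes were too dim for the test, which needed a clear signal on both arrays of a genotype, and no fold is given. The brightest Eda2r probe had log2 signals of -4.92 and -5.50 in CD109-/- tumours, against -5.95 and -5.86 in CD109+/+ tumours, and it was well above background only on CD109-/- replicate 1. The other 2 probes, between -8.03 and -6.41, were at background on all 4 arrays. This gene differs in that respect from the brightest probes of the other members, whose highest signal was on CD109-/- replicate 2. Eda2r lies on the X chromosome, and CD109-/- replicate 1 was the only male sample. A link between this dim signal and sex was not tested.

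**Figure D2:**
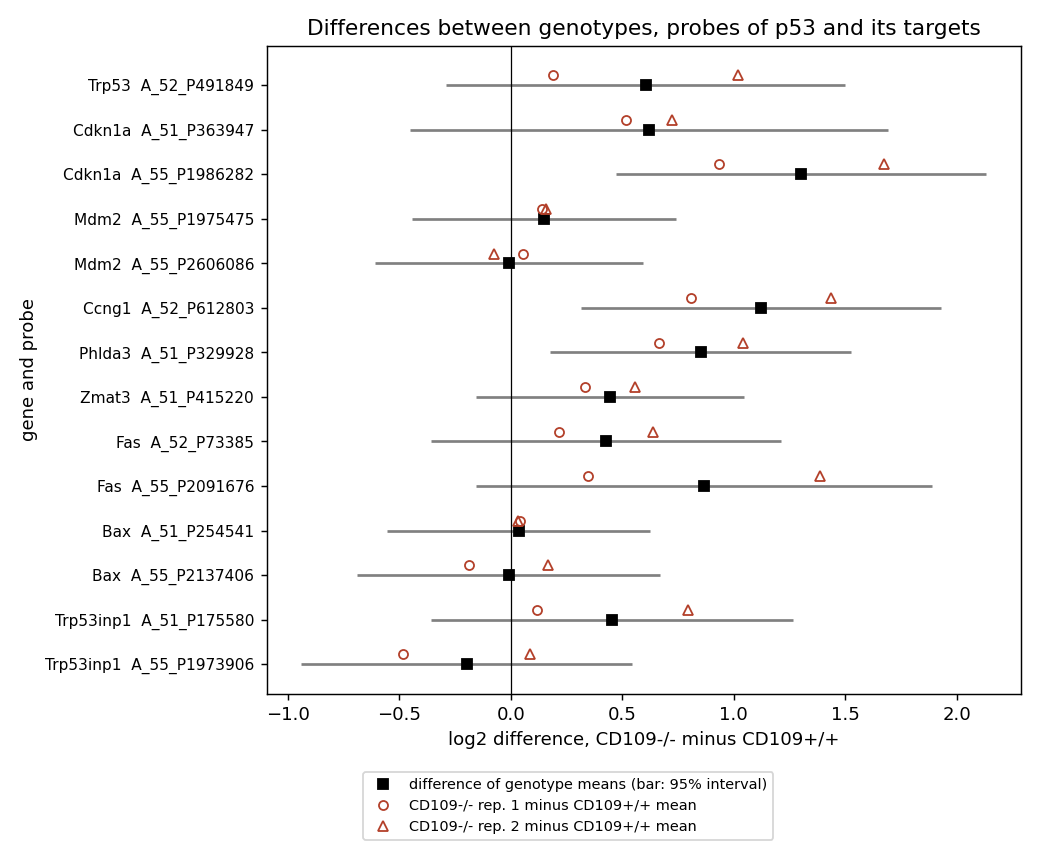
Log2 difference, CD109-/- minus CD109+/+, for the 14 tested probes (squares, with limma's 95% interval as a bar), and the difference of each single CD109-/- sample from the CD109+/+ mean (open circles replicate 1, open triangles replicate 2). The intervals of the dimmer Cdkn1a probe, Ccng1 and Phlda3 lie above 0, and the triangles lie to the right of the circles for Trp53, Fas and the brighter Trp53inp1 probe by 0.83, 1.04 and 0.68.

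Markers of other cells differed between the same samples, and their part in the p53 target signals was not tested. Club and ciliated cell markers were higher in CD109-/- tumours in 6 of 6 genes, with a median log2 difference of 1.85. Their summed signals were 190 and 267 times the 75th percentile on the CD109-/- arrays, against 67.2 and 112 on the CD109+/+ arrays. A sum is set mostly by the brightest genes of a list. The genotypes overlapped in 5 of the 6, all but Scgb1a1, which had the highest signals of the list (log2 signals of 7.49 and 7.79 against 5.91 and 6.51). All 6 airway markers peaked on CD109-/- replicate 2, but the other 5 were higher on CD109+/+ replicate 2 than on CD109-/- replicate 1, and the list's centred medians were -0.35 and 2.15 against -2.57 and 0.59. T and NK cell markers were higher in 6 of the 7 measured, with a median difference of 1.54. Their sums were 4.69 and 6.29 against 4.10 and 3.77, while Cd8a and Ncr1 were too dim to be tested. Macrophage markers were higher in 9 of 10 (median difference 0.54, sums of 130 and 99.4 against 79.9 and 98.8). Fibroblast and smooth muscle markers were higher in 9 of 10 (median difference 0.50, sums of 58.3 and 49.6 against 40.9 and 35.9). Endothelial markers were higher in 8 of 8 (median difference 0.30, sums of 16.0 and 20.1 against 18.5 and 13.6). Of these 8 markers 6 were highest on CD109-/- replicate 2, against 27.4% of all genes. Neutrophil markers were higher in 5 of 6 (median difference 1.18, sums of 93.1 and 96.6 against 91.1 and 84.8). Of these 6 markers 5 were highest on CD109-/- replicate 1. B and plasma cell markers were higher in 2 of 6 (median difference -0.10, sums of 5.60 and 5.55 against 1.91 and 3.74). Across all genes tested 50.3% were higher, and the median difference was 0.00. The epithelial and adenocarcinoma markers were higher in 4 of 10 (median difference -0.14, sums of 1342 and 1147 against 1491 and 1278). Sex differed too, since only CD109-/- replicate 1 was male.

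**Figure D3:**
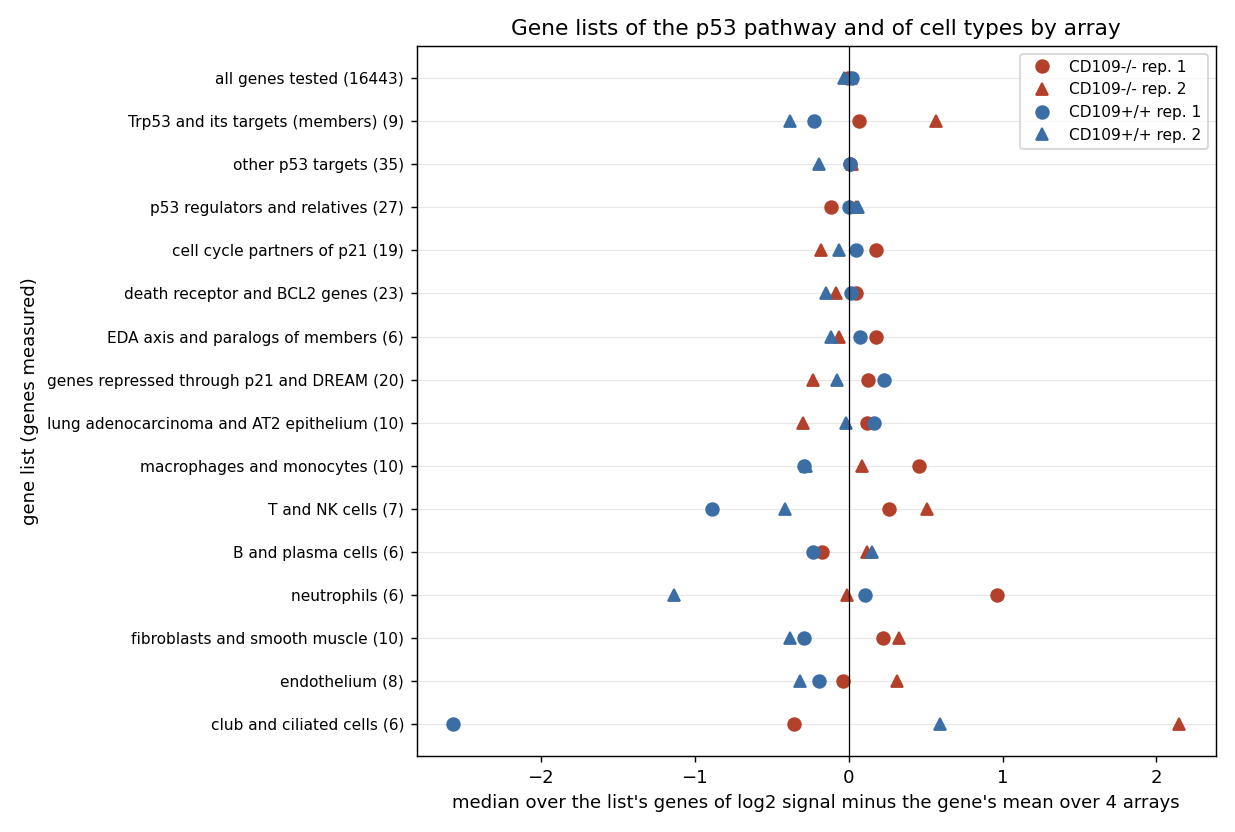
Median over each list's genes of the log2 signal minus the gene's own mean over the 4 arrays, by sample (red CD109-/-, blue CD109+/+, circles replicate 1, triangles replicate 2), for all genes, the p53 pathway lists and the cell type markers, with the number of genes measured in brackets. The member genes stand at 0.07 and 0.57 on the CD109-/- arrays and at -0.23 and -0.38 on the CD109+/+ arrays, and the further p53 targets lie between -0.19 and 0.02.

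A list of 36 further p53 targets was read beside the members. Of the 35 measured, 22 had higher and 13 lower values in CD109-/- tumours, and their median difference was 0.13, against 0.60 for the 9 measured member genes and 0.00 for all genes tested. None passed limma's adjusted threshold (all genes 0.00%), and at an unadjusted p under 0.05 there was 1 higher gene, Ephx1, and 1 lower gene, Cpt1c, against 5.05% and 2.48% of all genes. Genotypes did not overlap in 7 higher and 3 lower genes, against 20.3% and 18.3% of all genes.

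Ephx1, which encodes microsomal epoxide hydrolase, had log2 signals of 3.50 and 4.18 in CD109-/- tumours, against 2.77 and 3.05 in CD109+/+ tumours, a difference of 0.93 ± 0.32 (limma adjusted p = 0.69). Like the members it was highest on CD109-/- replicate 2. That was so for 10 of the 35 further targets measured, against 27.4% of all genes. Another 14 of the 35 were highest on CD109-/- replicate 1, against 4600 of all 16443 genes. Cpt1c, a carnitine palmitoyltransferase gene, had -2.37 and -1.29 against -0.77 and -0.70, a difference of -1.10 ± 0.41, and its further probe gave -1.14. It was lower in both CD109-/- samples.

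Tigar, which lowers glycolytic flux, differed by 0.75 ± 0.33 with its highest signal on CD109-/- replicate 1, and the repair gene Xpc by -0.63 ± 0.28, although its further probe gave -0.16. Smaller positive differences without overlap were those of Ei24 (0.40 ± 0.23), Sesn1, which restrains mTOR signalling (0.39 ± 0.24), Sfn (0.53 ± 0.33), the stress cytokine gene Gdf15 (0.39 ± 0.26) and Rps27l (0.34 ± 0.25), the last named after its values were seen. Of these genes Sesn1 and Gdf15 were highest on CD109-/- replicate 2, and Ei24, Sfn and Rps27l on CD109-/- replicate 1.

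Bbc3 (Puma) and Pmaip1 (Noxa) encode effectors of cell death, and the genotypes overlapped in both. Bbc3 had log2 signals of 1.13 and 1.46 in CD109-/- tumours, against 1.58 and 1.23 in CD109+/+ tumours. Pmaip1 spread over the whole range within a genotype, with 3.25 and -0.46 against 1.48 and 0.21. The highest and the lowest Pmaip1 signals were thus both in CD109-/- tumours, and its difference of 0.55 ± 1.26 was -1.31 without CD109-/- replicate 1.

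**Figure D4:**
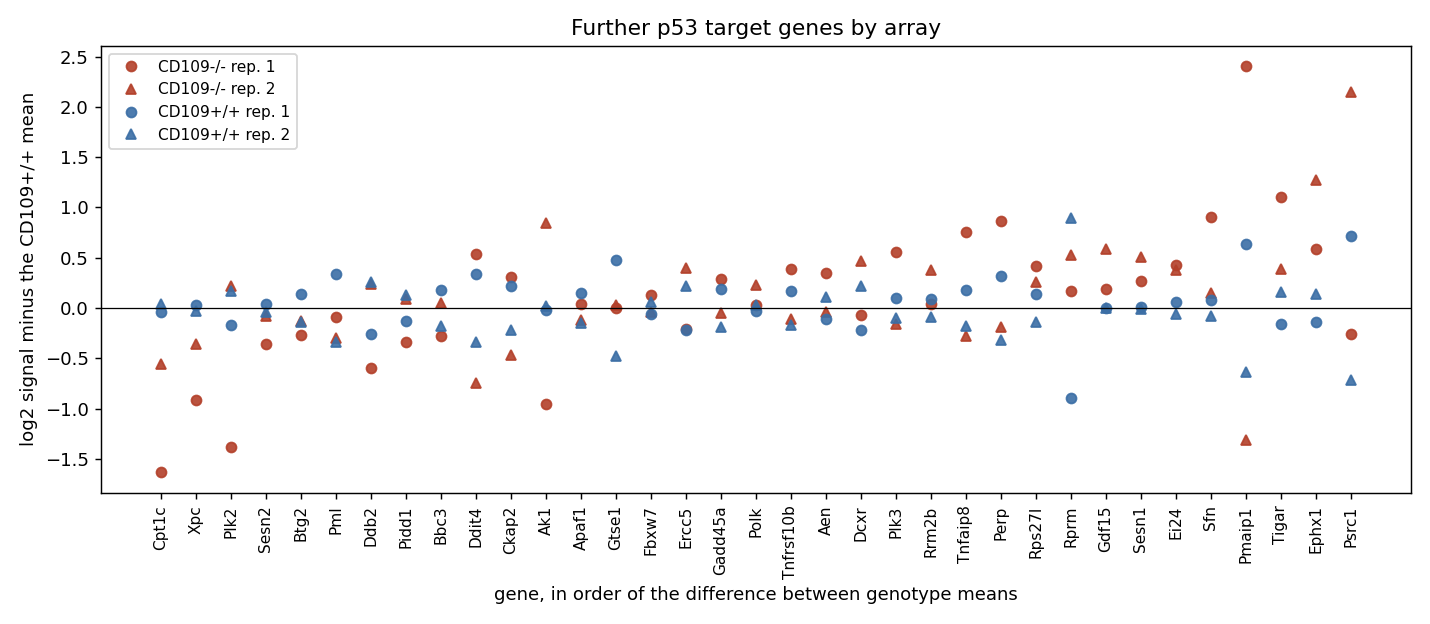
Log2 signal minus the CD109+/+ mean for the 35 measured further p53 targets, in order of the difference between genotype means (points are samples, red CD109-/- and blue CD109+/+, circles replicate 1 and triangles replicate 2). Points of both genotypes intermingle for most genes, and Pmaip1 has CD109-/- samples at both extremes.

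Of 27 regulators and relatives of p53 measured, the relatives Trp63 and Trp73 among them, 8 had higher and 19 lower values in CD109-/- tumours. Of all genes 50.3% were higher. Genotypes did not overlap in 3 higher and 4 lower genes of this list, against 20.3% and 18.3% of all genes. The list's median difference was -0.11, and -0.02 when CD109-/- replicate 1 was dropped. Dropping other single samples gave -0.15 to -0.09. In the list 1 gene was lower at an unadjusted p under 0.05 with limma (2.48% of all genes). That gene was Cdkn2a, which encodes an inhibitor of cyclin D kinases and, from another reading frame, the ARF protein that restrains Mdm2. Cdkn2a had log2 signals of 3.55 and 3.04 in CD109-/- tumours, against 4.66 and 3.88 in CD109+/+ tumours. Both CD109-/- samples were lower, with a difference of -0.97 ± 0.37 (limma adjusted p = 0.725), and a further probe gave -0.79.

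The arginine methyltransferase gene Prmt5 differed by -0.48 ± 0.23 and the checkpoint kinase gene Chek2 by -0.49 ± 0.29, both without overlap. Chek1 differed by 0.35 ± 0.25, with a further probe at -0.07, and Ppp1r13l, which encodes an inhibitor of p53, by -0.45 ± 0.35. Mdm4, a relative of Mdm2 that blocks p53 activity, differed by -0.35 ± 0.35, with the genotypes overlapping and none of its 3 further probes below -0.16.

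Genes downstream of the members were read next. Of 20 genes that the p21 and DREAM pathway represses, 4 had higher and 16 lower values in CD109-/- tumours (median difference -0.16). Of all genes tested 50.3% were higher. At an unadjusted p under 0.05 with limma there were 0, against 5.05% of all genes higher and 2.48% lower. Genotypes did not overlap in 0 higher and 5 lower genes, against 20.3% and 18.3% of all genes. Mki67 stood at 2.17 and 1.82 against 2.22 and 1.94. The mitotic genes with the largest moderated t were Cdc25c (-0.63 ± 0.30), Bub1b (-0.39 ± 0.23) and Cdc20 (-0.36 ± 0.26), each without overlap, and 15 of the 20 were highest on CD109+/+ replicate 1, against 27.4% of all genes. The lean towards lower values rested on single samples, since the list's median difference was 0.04 when CD109+/+ replicate 1 was dropped and also 0.04 when CD109-/- replicate 2 was. Cyclins, kinases and inhibitors that work with p21 went both ways, with 9 higher and 10 lower of 19 measured (50.3% of all genes higher). Genotypes did not overlap in 4 higher and 3 lower of them, against 20.3% and 18.3% of all genes. Their median difference lay between -0.19 and 0.24 when single samples were dropped. Among them E2f1 differed by 0.44 ± 0.25, Cdkn2c by 0.45 ± 0.30, Cdk4 by -0.40 ± 0.26 and Ccne1 by -0.38 ± 0.30.

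On the side of the death receptors, Fasl, the ligand of Fas on T and NK cells, had log2 signals of -4.99 and -5.40 in CD109-/- tumours and was not well above background in CD109+/+ tumours, where it measured -7.13 and -6.74. It was at least 1.47-fold higher in CD109-/- tumours (limma adjusted p = 0.55, computed from the measured values), while normexp gave a log2 difference of 0.07. Unlike Fas, it was higher on CD109-/- replicate 1 than on replicate 2. Of the 23 death receptor and BCL2 genes measured, 13 had higher and 10 lower values, where 50.3% of all genes were higher. Genotypes did not overlap in 4 higher genes of this list, Fasl among them, and in 3 lower, against 20.3% and 18.3% of all genes. Only Fasl had an unadjusted p under 0.05 with limma, being higher in CD109-/- tumours (5.05% of all genes). Fasl passed the filter on dim probes only through the CD109-/- arrays, so this p carries no weight. The adaptor gene Fadd differed by -0.35 ± 0.22, the anti-apoptotic Mcl1 by 0.45 ± 0.23, Bcl2l11 (Bim) by 0.30 ± 0.25 with its 3 further probes between -0.31 and 0.52, and Bik by 0.36 ± 0.33.

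Among ligands and relatives of the members, Eda, the ectodysplasin gene, had log2 signals of -5.06 and -2.12 in CD109-/- tumours, against -3.16 and -3.39 in CD109+/+ tumours. Its CD109-/- samples lay on either side of both CD109+/+ samples. Zmat4, a paralog of Zmat3, differed by -1.45 ± 0.36 (limma adjusted p = 0.608, further probe -0.73), the direction opposite to that of Zmat3. Trp53inp2, the paralog of Trp53inp1, differed by 0.34 ± 0.22 and the signalling adaptor gene Traf6 by 0.58 ± 0.26, with a further probe at 0.28.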

How the data were processed

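Per the labels' protocols, Cy3-labelled cRNA was made from 100 ng of total RNA of each of 4 lung tumour samples and read on single-colour Agilent arrays. The deposited scanner files, made by the authors with Agilent Feature Extraction 12.1.0.3 per the file headers, hold intensity values on a linear scale, of which the processed signal was background-subtracted and detrended within the array. The authors' further table of intensity values is a rescaling of the processed signal, by 1.04 and 1.08 for the CD109-/- arrays and by 1.19 and 1.21 for the CD109+/+ arrays, on a basis that no label or header states. Its column medians were 59.5 and 69.2 for CD109-/- and 58.8 and 76.1 for CD109+/+, and it served as an alternative.

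Spots with outlier marks (58 to 73 per array) were left out, 0 spots were saturated, spots of a probe were averaged, and values were log2 processed signal minus the array's 75th percentile over 59305 spots without controls. Of 56605 probes, 35769 were tested, meaning that both arrays of a genotype, either one, showed them well above background. Accessions gave 34566 probes a symbol in a RefSeq table of GRCm38.p6. The arrays use another build, so no gene coordinates of that table were used, and promoter windows are RefSeq's own. In gene lists a gene stands for its brightest tested probe. Genotypes were compared on the 4 arrays with limma 3.58.1 (lmFit, eBayes; R 4.3.3), two-sided, without covariates (2 residual and 3.02 prior degrees of freedom), and tested on simulated data. For a probe not well above background in 1 genotype the fold is a bound, taken on each array against its own value or the dimmest clearly detected probe, whichever is higher. Slide and scan were the same for all 4 arrays. The members and lists were chosen with earlier results of these data known. From each further list the genes with the largest absolute moderated t were named (8 targets, 5 regulators, 4 partners of p21, 5 death genes, 3 EDA axis genes and paralogs, 3 repressed genes), plus Fasl, Eda, Mdm4, Cdkn2a, Bbc3, Pmaip1 and Mki67. Alternatives were normexp with an offset of 50 (on median spot and background signals, the files holding no mean spot signal), quantile and median scaling, the authors' values, other filters, a variance trend, the replicate number, sex, other thresholds, averaging the probes of a gene and dropping each array in turn.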

Additional observations from a re-analysis of the deposited data

How the results depend on the processing

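No member probe passed limma's adjusted threshold under any setting run. The number of the 14 tested probes with a positive difference was 11 to 13 throughout, and 13 of 17 without the filter on dim probes. The direction of 10 probes, of Trp53, Cdkn1a, Ccng1, Phlda3, Zmat3 and Fas, the bright Mdm2 and the brighter Trp53inp1 probe, held in every setting. The dim Mdm2 probe turned to 0.018 with quantile and 0.029 with median scaling and ranged from -0.10 to 0.082 without single samples. The brighter Bax probe turned to 0.029 with median scaling and 0.17 with sex as a covariate (-0.19 to 0.17 without single samples), the other Bax probe ranged from -0.047 to 0.12, and the dimmer Trp53inp1 probe turned to 0.087 with sex (-0.48 to 0.087). With sex as a covariate the difference is that of the female CD109-/- sample alone, and it also turned Bbc3 (0.051), Pmaip1 (-1.31), Mdm4 (0.045) and Eda (1.16). Without single samples these 4 ranged from -0.29 to 0.067, -1.31 to 2.40, -0.75 to 0.045 and -1.78 to 1.16, and Mki67 from -0.26 to 0.086. The median of the further p53 targets was 0.17 with median scaling, 0.051 with sex and 0.051 to 0.15 without single samples, and that of the death receptor and BCL2 genes 0.091 with median scaling and -0.0070 to 0.17 without single samples. Over all probes 0 passed at an adjusted p under 0.05 or 0.10, 2437 at an unadjusted p under 0.05, and 0 to 2 passed the adjusted threshold when single samples were left out, the 2 without CD109-/- replicate 2. Samples with the same replicate number deviated together (r = 0.35), but with 2 pairs and no label that ties them they share only a number. With the replicate number as a block, 3947 probes had an unadjusted p under 0.05 against 2437 without it, 4 of them member probes, and 0 passed the adjusted threshold. The differences of the dim probes of Trp53, Cdkn1a and Fas were sensitive to the processing, and normexp lowered them to 0.27, 0.29 and 0.19. The cause of these and the other changes was not tested.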
